A study of Mus musculus with 10 samples.

Results

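A set of 10 genes of the blood vessel lining were followed in kidney cortex of diabetic and control mice: Pecam1, Cdh5, Emcn, Kdr, Flt1, Tek, Plat, Nos3, Sele and Selp. They were chosen by symbol as endothelial markers and adhesion molecules, with earlier results of these data known. Of these, 10 of 10 had a row among the 16475 genes of the array table. The cortex had been depleted of glomeruli and came from BKS mice aged 24 weeks. There were 5 diabetic db/db animals and 5 db/m littermates without diabetes, each giving 1 Affymetrix array. By general knowledge, the db allele disrupts Lepr, the receptor for leptin, and is carried on both copies in db/db and on 1 copy in db/m, so the controls carry the allele too. No drug or other treatment is named for either group. The question was whether these vessel genes differed between the groups, with and without the mouse db/db 1.

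Endothelial cells line arteries, veins and capillaries, and in the cortex they form the glomerular capillaries and the peritubular capillaries around the tubules. VEGF made by epithelial cells acts on the receptors Kdr and Flt1, and angiopoietins act on Tek. Resting endothelium makes nitric oxide through Nos3 and releases the plasminogen activator Plat, while inflamed endothelium shows the selectins Sele and Selp, which catch leukocytes from the blood. Selp is stored in endothelial granules and in platelets, and Pecam1 also occurs on leukocytes and platelets.

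Promoter sequences were in the RefSeq table for 6 of the 10 genes (Kdr, Flt1, Tek, Emcn, Sele and Selp). Those of both selectins are shown because both genes were highest in db/db 1, by very different amounts, and because they are neighbours, with 67.0 kb between their starts on chromosome 1. Each window has 300 bases, 250 before the start and 50 from it, read 5′ to 3′ on the gene's strand in GRCm38.p6. Capitals mark GGG, then 5 bases of any kind, then CC, on either strand, a wide form of the site bound by NF-kB, the factor that turns on inflammatory genes. The Sele window is chr1:164047984-164048283, plus strand, and the Selp window is chr1:164115014-164115313, plus strand.
Sele: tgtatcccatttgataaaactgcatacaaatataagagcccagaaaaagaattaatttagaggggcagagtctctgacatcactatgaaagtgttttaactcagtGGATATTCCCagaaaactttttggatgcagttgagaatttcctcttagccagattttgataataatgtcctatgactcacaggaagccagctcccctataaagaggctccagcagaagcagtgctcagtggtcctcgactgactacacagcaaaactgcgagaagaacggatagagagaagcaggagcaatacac
Selp: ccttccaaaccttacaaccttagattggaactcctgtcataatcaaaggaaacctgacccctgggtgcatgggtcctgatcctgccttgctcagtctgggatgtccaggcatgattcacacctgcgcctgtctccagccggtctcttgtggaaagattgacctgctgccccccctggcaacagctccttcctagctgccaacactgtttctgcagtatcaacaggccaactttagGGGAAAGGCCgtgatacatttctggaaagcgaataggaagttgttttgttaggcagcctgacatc
Each selectin window held 1 match, beginning at -145 from the start of Sele and at -15 from that of Selp. Among the other members, Kdr and Flt1 had 3 matches each, counted over both strands, Tek 1 and Emcn 0. So wide a motif was found in 50.8% of the 32851 promoter windows of the table, so a match is a description of the letters and no more. The letters TATAAA, searched on both strands, occurred once in the Sele window and were not in the Selp window, against 13.6% of all windows.

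The windows of the VEGF receptor genes Kdr and Flt1 are shown because these genes were both lowest in db/db 1. Capitals mark AGGAAG on either strand, a core bound by ETS factors, which act in endothelial cells. The Kdr window is chr5:75978406-75978705 and the Flt1 window chr5:147725962-147726261, both on the minus strand of GRCm38.p6.
Kdr: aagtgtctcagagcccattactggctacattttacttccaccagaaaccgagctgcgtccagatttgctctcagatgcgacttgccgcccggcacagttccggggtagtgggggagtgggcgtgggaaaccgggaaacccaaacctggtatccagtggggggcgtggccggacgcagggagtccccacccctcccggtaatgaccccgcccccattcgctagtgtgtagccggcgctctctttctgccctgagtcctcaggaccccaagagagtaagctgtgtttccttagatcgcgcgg
Flt1: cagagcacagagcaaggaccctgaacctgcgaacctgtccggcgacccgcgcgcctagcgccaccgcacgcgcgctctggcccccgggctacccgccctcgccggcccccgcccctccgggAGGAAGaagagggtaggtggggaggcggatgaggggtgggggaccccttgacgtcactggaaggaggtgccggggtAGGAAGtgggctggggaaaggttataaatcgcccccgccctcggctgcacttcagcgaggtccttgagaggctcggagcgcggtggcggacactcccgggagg
The ETS letters occurred 2 times in the Flt1 window and were not in the Kdr window, and 35.4% of all windows held them. Among the other members, Emcn and Selp had 2 matches each, Sele 1 and Tek 0.

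The array of db/db 1 stood apart before any gene was tested. Across genes, it correlated with the remaining 9 at a Pearson r of 0.938 to 0.962, and the lowest r among those 9 was 0.985. Genes are not independent replicates. Array medians lay between 8.46 and 8.66 on the log2 scale of the deposited values, the highest in db/db 1. Bright proximal tubule genes stood beside the vessel genes, as the labelled tissue would have. The phosphate transporter gene Slc34a1 had a db/m mean of 13.8. Changes are db/db minus db/m in log2 units with the standard error (n = 5 per group), and a mean stands with its SD.

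With all 10 arrays Plat and Sele rose in db/db, and 0 members fell. Pecam1 joined them when db/db 1 was left out. The limma fit called 6.51% of all genes at a Benjamini-Hochberg adjusted p under 0.05, with 2.96% higher and 3.54% lower, beside the 2 of 10 members that were higher. Leaving out db/db 1 gave 3 of 10 members higher and 0 lower, beside 12.8% of all genes called, 6.84% higher and 5.93% lower. For Plat, Sele and Pecam1 all 5 db/db mice lay above all 5 db/m mice, and 4.35% of all genes showed that order. The opposite order held for 5.85%, 10.2% in either direction. With db/db 1 left out the same 3 members were apart, beside 7.76% of all genes in that order, 7.61% in the opposite one and 15.4% in either. The change was above 0 for 7 of 10 members with all arrays, compared with 43.1% of all genes. The members' median change was 0.26, or 0.22 without db/db 1, beside -0.03 and -0.01 over all genes. Because the members were chosen with earlier results of these data known, their shares and median do not measure an excess over all genes. At an unadjusted p under 0.05 limma called 21.5% of all genes, and 26.5% with db/db 1 left out, so a small p alone was common in these data.

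**Figure D1:**
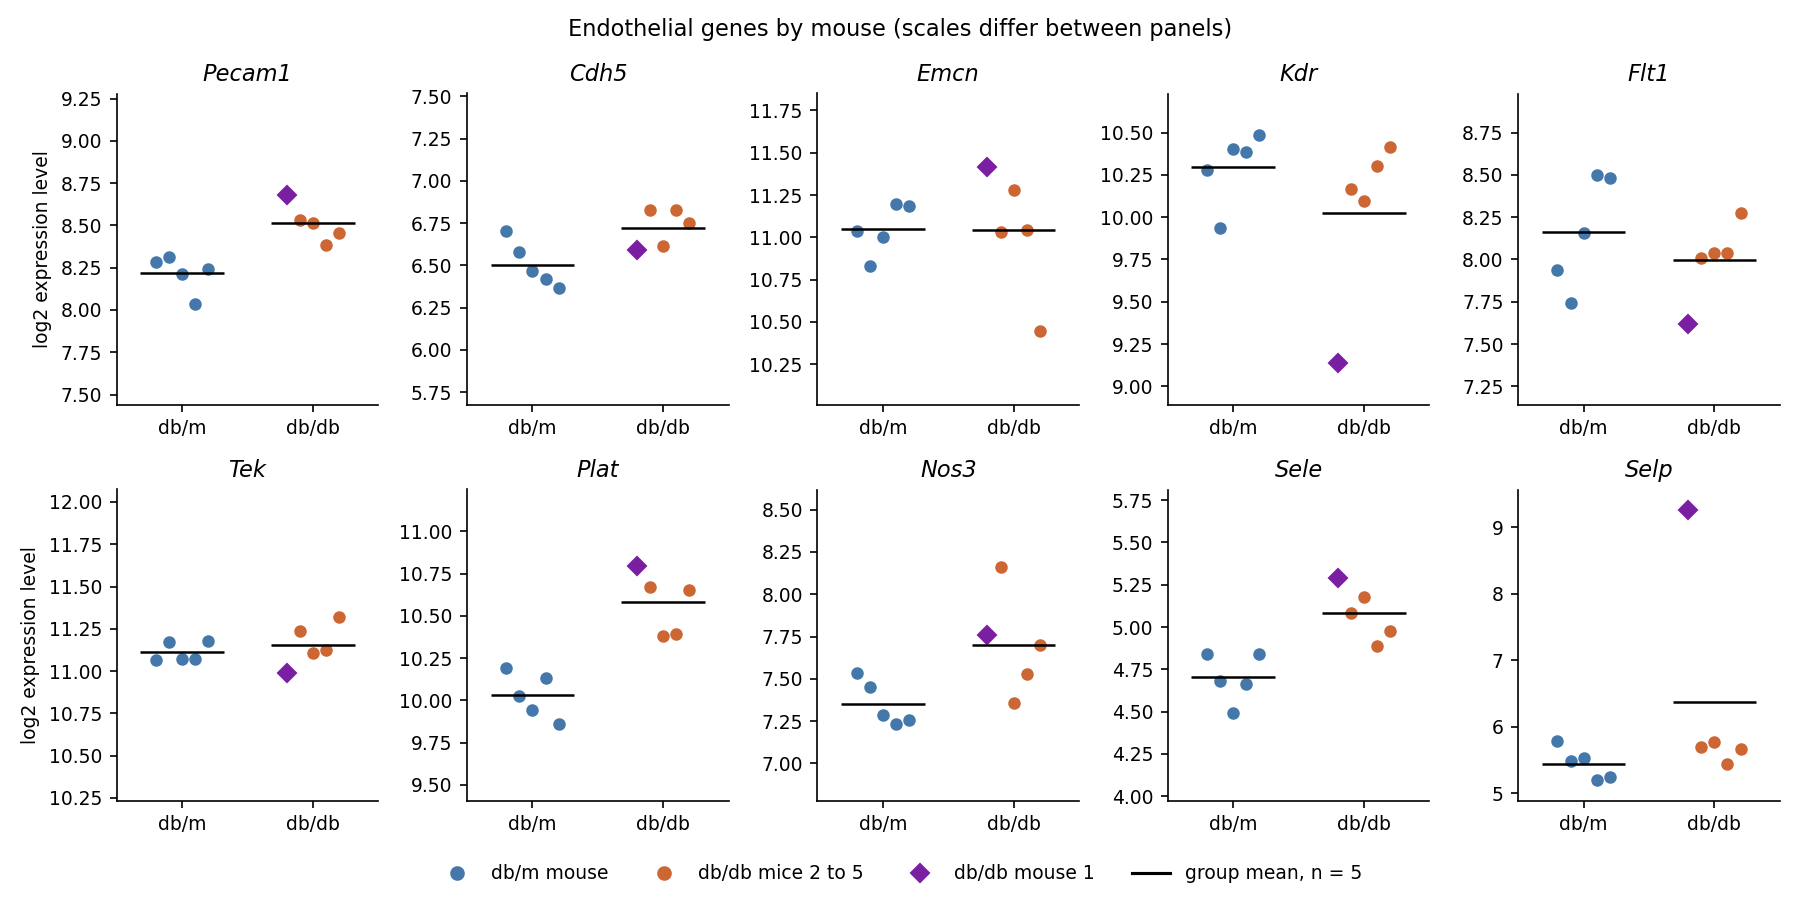
Log2 expression level of each of the 10 endothelial genes in each mouse, with db/m on the left and db/db on the right of every panel; circles are mice, the diamond is db/db 1 and bars are group means of 5 mice. Pecam1, Plat and Sele have all db/db mice above all db/m mice, while the group mean of Selp is set by db/db 1 at 9.26.

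Plat, which encodes the tissue plasminogen activator that starts the breakdown of fibrin clots, had the lowest adjusted p of the 10 genes. Its levels were 10.19, 10.02, 9.94, 10.13 and 9.86 in db/m 1 to 5 and 10.80, 10.67, 10.38, 10.39 and 10.65 in db/db 1 to 5. The groups did not overlap, and 0.19 log2 units separated the lowest db/db mouse from the highest db/m mouse. The mean was 10.03 ± 0.14 in db/m and 10.58 ± 0.18 in db/db, a 1.46-fold rise (0.55 ± 0.10, 95% confidence interval 0.32 to 0.78, limma adjusted p = 0.0139). Without db/db 1 the rise was 0.50 ± 0.10 (adjusted p = 0.00934). Plat was called in 10 of 10 fits that each left out 1 mouse, with an adjusted p up to 0.0450 without db/m 3.

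Plat is known from glomerular capillaries, and glomerular genes were still measured in this tissue. Podocyte markers stood 0.48 to 0.68 above the db/m mean in db/db 2 to 5 and 0.26 above it in db/db 1, as the mean of 7 genes, with db/m mice between -0.09 and 0.09. Of these 7 genes 5 rose, namely Cdkn1c (0.80), Nes (0.71), Ptpro (0.58), Synpo (0.46) and Wt1 (0.45), and 7 rose without db/db 1, among them the slit diaphragm gene Nphs1 (0.80). The count was 3 without db/m 3 and 3 without db/m 4. In db/db 1 Nphs1 was 7.36, within the db/m range of 7.27 to 7.87. Of all genes, 2.96% were called higher with all arrays and 6.84% without db/db 1. Ehd3, a gene of glomerular endothelium, overlapped between the groups, at 9.65, 10.01, 9.79, 10.18 and 9.96 in db/m and 9.27, 10.23, 10.15, 10.05 and 9.94 in db/db (0.01 ± 0.18, limma adjusted p = 0.974). Plvap, a gene of fenestrated peritubular capillaries, had a mean of 11.11 ± 0.15 in db/m, and of 11.19 ± 0.24 in db/db (0.08 ± 0.12, adjusted p = 0.739). The part of glomerular carry-over in the rise of Plat was not tested.

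Pecam1, Cdh5 and Emcn encode proteins of the endothelial surface and its junctions. Pecam1, a junction and leukocyte passage protein, was 8.28, 8.32, 8.21, 8.04 and 8.24 in db/m and 8.68, 8.53, 8.51, 8.38 and 8.46 in db/db. Every db/db mouse was above every db/m mouse, by a margin of 0.07. The fit gave 0.29 ± 0.08, a 1.23-fold difference that missed the threshold (95% interval 0.12 to 0.47, limma adjusted p = 0.0546). It passed without db/db 1 (0.25 ± 0.07, adjusted p = 0.0469) and in none of the 9 other fits that left out 1 mouse, in which adjusted p reached 0.128. In a bulk sample, more endothelial cells and more RNA per endothelial cell cannot be told apart.

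Cdh5, the cadherin that holds endothelial junctions together, was 6.70, 6.58, 6.46, 6.42 and 6.36 in db/m and 6.59, 6.83, 6.62, 6.83 and 6.75 in db/db. All 5 db/db mice were above the db/m mean, but db/db 1 and db/db 3 lay within the db/m range. The difference was 0.22 ± 0.09 (95% interval 0.03 to 0.41, limma adjusted p = 0.171), or 0.25 ± 0.08 without db/db 1 (adjusted p = 0.0840). Emcn, a sialomucin of capillary and venous endothelium, lay between 10.83 and 11.20 in the 5 db/m mice and was 11.41, 11.03, 11.28, 11.04 and 10.45 in db/db. Its db/db mice spread to both sides of the db/m range, with db/db 1 the highest and db/db 5 the lowest of the 10 mice. The change was -0.01 ± 0.17 (95% interval -0.38 to 0.36, limma adjusted p = 0.981).

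The VEGF receptors overlapped between the groups, and db/db 1 was lowest for both. Kdr, the main signalling receptor for VEGF-A, was 10.28, 9.93, 10.40, 10.39 and 10.48 in db/m and 9.14, 10.17, 10.10, 10.31 and 10.41 in db/db. In db/db 1 it lay 2.23-fold below the db/m mean, whereas db/db 2 to 5 were within the db/m range. The change was -0.27 ± 0.23 (95% interval -0.77 to 0.23, limma adjusted p = 0.531) and -0.05 ± 0.12 without db/db 1 (95% interval -0.31 to 0.21, adjusted p = 0.839). Flt1, a receptor that binds VEGF-A tightly and also exists as a soluble trap, was 7.93, 7.74, 8.15, 8.50 and 8.48 in db/m. In db/db it was 7.62, 8.01, 8.04, 8.04 and 8.27, with db/db 1 below the db/m range and the other 4 mice inside it. Its change was -0.17 ± 0.17 (95% interval -0.54 to 0.21, limma adjusted p = 0.619), or -0.07 ± 0.16 without db/db 1.

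Tek, the angiopoietin receptor Tie2, varied least among the db/m mice, at 11.06, 11.17, 11.07, 11.07 and 11.18. In db/db it was 10.99, 11.24, 11.10, 11.12 and 11.32, so the groups overlapped and the db/db mice spread to both sides of the db/m range. The change was 0.04 ± 0.07, and -0.024 with arrays centred on their medians (95% interval of the first -0.12 to 0.21, limma adjusted p = 0.782), or 0.09 ± 0.07 without db/db 1 (adjusted p = 0.471). Tek lies 6.98 Mb from Lepr on chromosome 4 between their annotated starts in GRCm38.p6.

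Nos3, the endothelial nitric oxide synthase, was 7.53, 7.45, 7.29, 7.24 and 7.26 in db/m and 7.76, 8.16, 7.36, 7.53 and 7.70 in db/db. All db/db mice were above the db/m mean and 3 were above the db/m range, with db/db 2 the highest. The mean went from 7.35 ± 0.13 to 7.70 ± 0.30 (0.35 ± 0.14, 95% interval 0.04 to 0.66, limma adjusted p = 0.181). Without db/db 1 the difference was 0.33 ± 0.15 (adjusted p = 0.189), so neither fit called it.

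**Figure D2:**
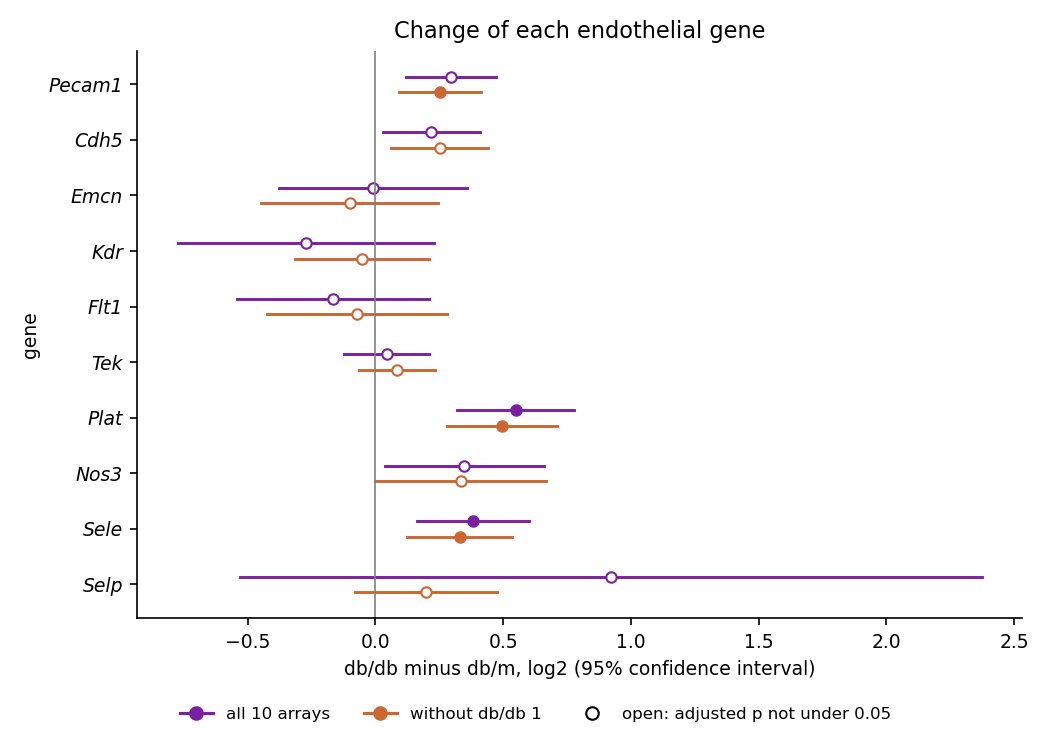
Change of each endothelial gene, db/db minus db/m in log2 units, with its 95% confidence interval from limma, for all 10 arrays (purple) and without db/db 1 (orange); filled points have an adjusted p under 0.05. Plat and Sele are filled in both fits and Pecam1 in the second, and the interval of Selp narrows from -0.53 to 2.37 to -0.08 to 0.48 when db/db 1 is left out.

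The selectins, which start the rolling of leukocytes along the vessel wall, differed in pattern. Sele, or E-selectin, was dim, among the lowest 25% of genes by mean level, at 4.84, 4.68, 4.49, 4.66 and 4.84 in db/m and 5.29, 5.09, 5.18, 4.89 and 4.98 in db/db. The groups did not overlap, but only 0.047 log2 units lay between them. The mean rose from 4.70 ± 0.14 to 5.09 ± 0.16, a 1.30-fold rise (0.38 ± 0.10, 95% interval 0.16 to 0.60, limma adjusted p = 0.0485). It also rose without db/db 1 (0.33 ± 0.09, adjusted p = 0.0443). Of the 10 fits that each left out 1 mouse 2 called it, with an adjusted p up to 0.123 without db/m 3. At so dim a level the fold is approximate.

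Selp, or P-selectin, was high in 1 mouse. It was 5.78, 5.48, 5.52, 5.19 and 5.24 in db/m, and 9.26 in db/db 1 beside 5.69, 5.77, 5.44 and 5.66 in db/db 2 to 5. The level in db/db 1 was 14.1-fold above the db/m mean, and the other 4 db/db mice lay within the db/m range. The fit with all arrays gave 0.92 ± 0.65 (95% interval -0.53 to 2.37, limma adjusted p = 0.461), and without db/db 1 it gave 0.20 ± 0.12 (95% interval -0.08 to 0.48, adjusted p = 0.358). The 2 selectins therefore shared their highest mouse, but at 0.59 log2 units above the db/m mean for Sele and 3.82 for Selp.

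Of the 8 other adhesion molecules listed, 7 were also highest in db/db 1, and Cd99l2, a gene of leukocyte passage, was lowest there (9.362, against 9.366 to 9.738 in db/m). How many of all genes were highest or lowest in db/db 1 was not counted. As that array stood apart as a whole, this count does not set adhesion genes apart from others. Icam1, a ligand for leukocyte integrins, was 12.90 in db/db 1 and 11.42 in db/db 2, against 10.10 to 10.47 in db/m and 10.26 to 10.66 in db/db 3 to 5. Vcam1, a ligand for the integrin of lymphocytes and monocytes, was also 12.90 in db/db 1, 34.4-fold above the db/m mean, and 8.83 in db/db 2, against 7.57 to 8.37 in db/m and 7.33 to 7.76 in db/db 3 to 5. Neither passed (Icam1 0.81 ± 0.44, limma adjusted p = 0.319; Vcam1 1.06 ± 0.94, adjusted p = 0.562). Among these 8, Jam3, a junction protein, rose (0.56 ± 0.11, limma adjusted p = 0.0152), and 0 fell, beside 6.51% of all genes called. The median over the 8 was 0.30. The groups were apart for Jam3, at 9.10 to 9.47 in db/m and 9.58 to 10.04 in db/db, and it was called in 10 of 10 fits that left out 1 mouse.

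Leukocyte and inflammatory genes moved with Selp, Icam1 and Vcam1 in db/db 1. The mean of 9 leukocyte ligands of adhesion molecules was 2.49 above the db/m mean in db/db 1 and between -0.31 and 0.49 in the other db/db mice. In db/db 1 7 of these 9 exceeded the db/m mean by more than 2-fold. The share of all genes more than 2-fold up in that mouse was not counted, here or for the marker lists below. Of the 9, 0 passed the limma test in either fit, beside 6.51% of all genes called with all arrays and 12.8% without db/db 1. With all arrays the nearest to the threshold was Itgal, an integrin subunit gene (0.44 ± 0.35, adjusted p = 0.507). The 10 NF-kB inducible genes averaged 4.25 above db/m in db/db 1, 1.33 in db/db 2, 1.13 in db/db 3, and -0.19 and -0.41 in db/db 4 and 5. With all arrays 0 of the 10 passed, beside the same 6.51% of all genes. The nearest was Nfkbia, an inhibitor of NF-kB (0.81 ± 0.28, adjusted p = 0.119). Leaving out db/db 1, Nfkbia rose by 0.52 ± 0.10 (adjusted p = 0.0107) and Birc3, which protects cells from death, by 0.53 ± 0.13 (adjusted p = 0.0287).

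Markers of blood cells stood beside these values. Neutrophil markers averaged 4.94 above db/m in db/db 1, 2.03 in db/db 2 and 1.76 in db/db 3, with 5 of 5 genes more than 2-fold up in db/db 1 and the list between -0.46 and 0.39 in db/m. Macrophage markers averaged 2.88 in db/db 1, with 7 of 7 more than 2-fold up, 0.95 in db/db 2, and -1.11 to -0.70 in db/db 3 to 5. With all arrays 0 genes of either list passed the limma test, beside 6.51% of all genes called. The nearest were S100a8 (2.43 ± 1.23, adjusted p = 0.285) and Csf1r (-0.52 ± 0.54, adjusted p = 0.630). Csf1r fell by 1.08 without db/db 1 (adjusted p = 0.0137), in a fit that called 12.8% of all genes. The part of these blood cells in the levels of Pecam1, Selp, Icam1 and Vcam1 was not tested.

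Platelets store Selp, so their genes are given too. Among 7 platelet genes 2 exceeded the db/m mean by more than 2-fold in db/db 1, Pf4 at 11.53 against 7.02 to 7.93 in db/m, and Ppbp at 7.32 against 4.65 to 5.91. The platelet receptor genes Itga2b (7.33 in db/db 1, 7.85 to 8.35 in db/m) and Gp1bb (5.52, against 5.58 to 6.08) were below the db/m range in that mouse. Gp9 (6.27, against 5.81 to 6.43), Gp5 (4.02, against 3.92 to 4.63) and Treml1 (4.68, against 4.43 to 4.86) were within it. None of these 5 receptor and granule membrane genes was above the db/m range in db/db 1. The mean of all 7 platelet genes was 0.76 above the db/m mean in that mouse. It was -0.25 to 0.24 in the other db/db mice and -0.13 to 0.10 in db/m. Gp5, Ppbp and Treml1 were dim, as Sele was, so their values are approximate. The part of platelets in the level of Selp was not tested. In both limma fits 0 of the 7 passed, beside 6.51% of all genes called with all arrays and 12.8% without db/db 1. Ppbp was nearest with all arrays (adjusted p = 0.557).

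**Figure D3:**
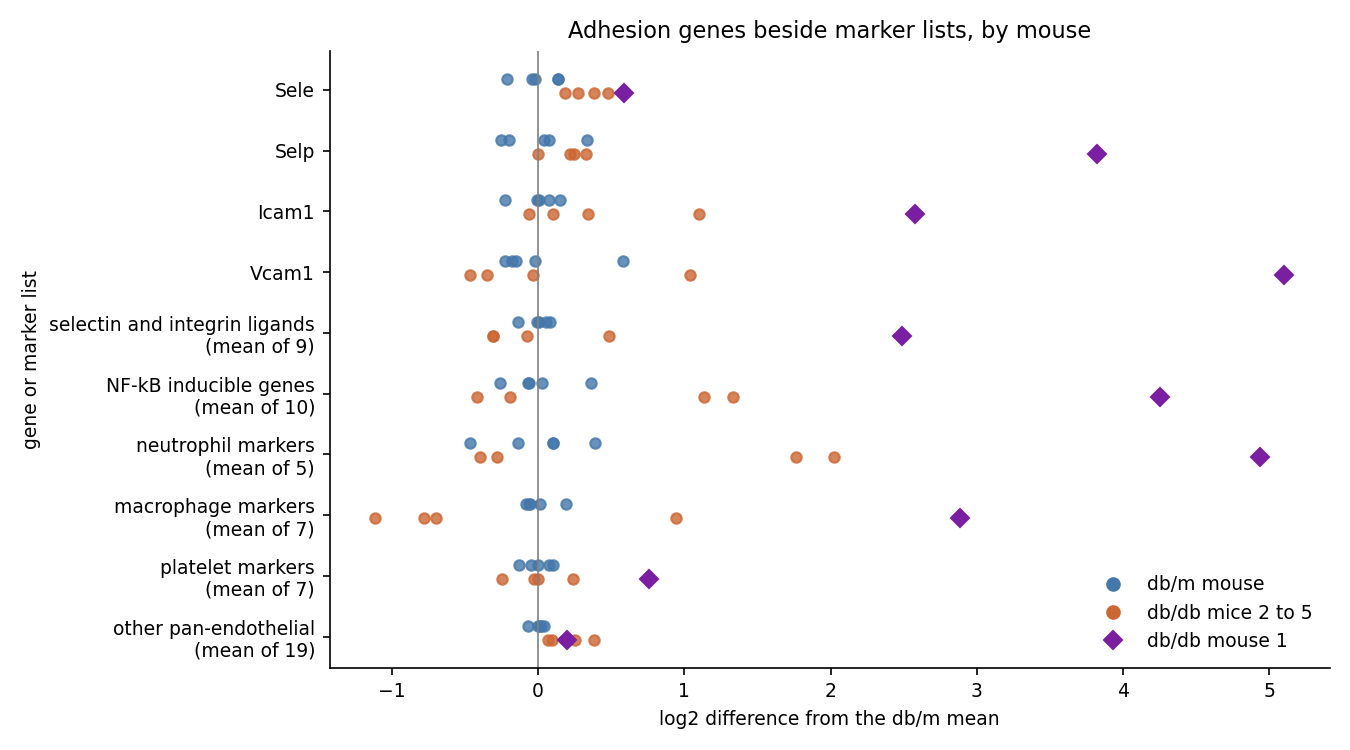
Log2 difference from the db/m mean for Sele, Selp, Icam1 and Vcam1 and for the mean of each marker list, by mouse; blue circles are db/m mice, orange circles db/db 2 to 5 and the purple diamond db/db 1. The diamond is the rightmost point in each line but the last, at 3.82 for Selp and 5.10 for Vcam1, and the 19 other pan-endothelial genes average 0.20 in that mouse.

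A wider set of 19 pan-endothelial genes was read beside the members. With all arrays 0 of 19 passed the limma test, beside 6.51% of all genes. The change was above 0 for 16 of them, beside 43.1% of all genes, with a median of 0.17. Nearest the threshold was Ramp2, the partner of the adrenomedullin receptor (0.45 ± 0.12, adjusted p = 0.0511). With db/db 1 left out, the junction gene Cldn5 rose (0.35 ± 0.09, adjusted p = 0.0297). In that fit the guidance receptor gene Robo4 fell by 0.31 ± 0.07 (adjusted p = 0.0233), and the median over the list was 0.17. In db/db 1 itself Cldn5 was below the db/m range (9.13, against 9.24 to 9.58). Robo4 was above it there (9.14, against 8.73 to 8.90). The list average was 0.20, 0.38, 0.09, 0.07 and 0.26 above db/m in db/db 1 to 5, and -0.07 to 0.04 in the db/m mice. So the db/db averages lay above the db/m averages by small amounts, without called genes in the fit of all arrays. Array medians were also higher in db/db, at 8.51 to 8.66 against 8.46 to 8.53 in db/m. The list averages were not centred on them, so the smaller ones may reflect the level of the array.

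Among 11 measured VEGF and angiopoietin ligands, co-receptors and the receptor Flt4, 1 gene fell and 0 rose with all arrays. The median change was -0.09, and 6.51% of all genes were called. Vegfc, the growth factor of lymphatic and venous endothelium, was 8.89, 8.96, 8.85, 8.84 and 8.56 in db/m and 8.31, 8.28, 8.26, 8.23 and 8.40 in db/db. The groups were apart, and Vegfc fell by 0.53 ± 0.08, a 1.44-fold fall (limma adjusted p = 0.00679), in 10 of 10 fits that left out 1 mouse. Vegfa, the ligand of Kdr and Flt1, was 8.68 in db/db 1 and 9.36 to 9.82 in the other db/db mice, against 9.61 to 9.88 in db/m (-0.33 ± 0.20, adjusted p = 0.380). The Tek ligands moved apart in db/db 1: Angpt1, which activates Tek, was 3.37-fold below the db/m mean and Angpt2, which mostly opposes it, 1.94-fold above. The other db/db mice did not share this. In db/db 2 to 5 Angpt1 was 7.99 to 8.17, against 7.64 to 8.02 in db/m. Angpt2 was 6.29 to 7.15 there, against 6.74 to 7.19 in db/m, with db/db 2, 3 and 4 below that range. Neither passed with all arrays (limma adjusted p = 0.797 for Angpt1 and 0.864 for Angpt2). With db/db 1 left out, the co-receptor gene Nrp2 fell by 0.34 ± 0.08 (adjusted p = 0.0187). Nrp2 was 8.99 in db/db 1 itself, above the db/m range of 7.81 to 8.02. Of the 3 measured lymphatic genes 0 passed with all arrays, the nearest being Pdpn (0.89 ± 0.27, limma adjusted p = 0.0762), which podocytes also make. All 5 db/db mice were above all 5 db/m mice for Pdpn, and it rose in the fit without db/db 1 (0.63 ± 0.13, adjusted p = 0.0129) and in 2 of the 10 fits that left out 1 mouse, that one included. Lyve1 and Prox1, which define lymphatic vessels, were among the lowest 25% of genes.

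Around Nos3, 2 of 15 nitric oxide genes rose and 0 fell, beside 6.51% of all genes called, with a median change of 0.39. Ddah2, which removes the methylarginines that inhibit nitric oxide synthases, rose from 7.89 ± 0.13 to 8.43 ± 0.14 (0.54 ± 0.09, limma adjusted p = 0.00834), with the groups apart. Nosip, a protein that binds the endothelial synthase, rose from 9.82 ± 0.13 to 10.21 ± 0.08 (0.39 ± 0.08, adjusted p = 0.0175), also with the groups apart. It was called in 9 of 10 fits that left out 1 mouse, and missed without db/m 3 (adjusted p = 0.0536). The fit without db/db 1 gave 6 rises and 1 fall among the 15, beside 12.8% of all genes called. The fall was in Ddah1, which has the same enzyme activity as Ddah2. Its levels were 12.69 to 12.87 in db/m and 11.90, 12.53, 12.50, 12.60 and 12.47 in db/db, so all db/db mice were below all db/m mice. With all arrays Ddah1 did not pass (-0.36 ± 0.13, limma adjusted p = 0.124), and without db/db 1 it fell by 0.24 ± 0.06 (adjusted p = 0.0317). The rises included Gucy1b1, a subunit of the nitric oxide receptor (0.64 ± 0.12, adjusted p = 0.00714), the arginine transporter gene Slc7a1 (0.50 ± 0.10, adjusted p = 0.0103) and Arg1, an arginine-splitting enzyme (0.52 ± 0.13, adjusted p = 0.0256). Arg1 was at 13.47 in db/db 1 against 4.78 to 5.28 in db/m. Gucy1b1 was below the db/m range in that mouse (6.55, against 6.70 to 7.19).

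Around Plat, 1 of 12 genes of plasminogen activation and the anticoagulant surface fell and 0 rose, beside 6.51% of all genes called. The median change was 0.19. Serpinf2, which encodes the plasmin inhibitor antiplasmin, was 12.77, 12.99, 13.02, 13.03 and 12.98 in db/m and 11.78, 12.25, 12.32, 12.47 and 12.53 in db/db. All db/db mice were below all db/m mice, and Serpinf2 fell by 0.69 ± 0.13 (limma adjusted p = 0.0165), or by 0.56 ± 0.08 without db/db 1 (adjusted p = 0.00256). Without db/m 3 its adjusted p was 0.0503. The tissue factor gene F3 fell by 0.25 ± 0.07 when db/db 1 was left out (adjusted p = 0.0445), and stood at 10.87 in that mouse against at most 10.24 in db/m.

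Genes that tell arteries, veins and capillary beds apart changed in 2 of 11 cases, beside 6.51% of all genes called, with a median change of -0.09. Dll4, the Notch ligand of arterial and sprouting endothelium, was 7.45, 7.55, 7.85, 7.36 and 7.29 in db/m and 6.48, 6.66, 6.91, 7.04 and 7.18 in db/db. The groups were apart, and Dll4 fell by 0.65 ± 0.15 (limma adjusted p = 0.0352), or by 0.55 ± 0.14 without db/db 1. Gja4, a connexin of arterial endothelium, rose by 0.48 ± 0.12 (adjusted p = 0.0455), with 4 of 5 db/db mice above the db/m range. Dll4 and Gja4 were called in 4 and 3 of the 10 fits that left out 1 mouse, the highest adjusted p being 0.0854 for Dll4 and 0.121 for Gja4, each without db/m 3. In the fit without db/db 1 the venous receptor gene Ephb4 rose by 0.30 ± 0.08 (adjusted p = 0.0398).

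Of vessel wall cells, 1 of 7 mesangial, pericyte and smooth muscle genes rose, beside 6.51% of all genes called. It was the pericyte gene Rgs5 (0.88 ± 0.18, limma adjusted p = 0.0180, or 0.0525 without db/m 3). In the fit without db/db 1 the platelet-derived growth factor receptor gene Pdgfrb fell by 0.54 ± 0.12 (adjusted p = 0.0145). Pdgfrb was above the db/m range in db/db 1 itself (10.36, against 10.01 to 10.22). Of 5 proximal tubule genes 0 passed in either fit, beside 6.51% of all genes called with all arrays and 12.8% without db/db 1. The nearest with all arrays was Lrp2 (-0.14 ± 0.14, adjusted p = 0.617). Of 4 distal nephron genes 0 passed with all arrays, and Aqp2 (0.57 ± 0.10, adjusted p = 0.00611) and Slc12a3 (0.46 ± 0.10, adjusted p = 0.0140) rose without db/db 1. In db/db 1 proximal genes averaged -0.49 and distal genes -0.77 relative to db/m, beside the low Kdr and Vegfa of that mouse.

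Over the 8 pathway lists together, 7 of 95 genes were called, 4 higher and 3 lower, which is 7.37% beside 6.51% of all genes. With db/db 1 left out 19 were called, 12 higher and 7 lower, or 20% beside 12.8% of all genes, and the first 7 were all among them with the sign kept. Of those 7 genes 3 (Vegfc, Jam3 and Ddah2) were called in 10 of 10 fits that left out 1 mouse. The lists were chosen with earlier results of these data known, so their shares do not measure an excess over all genes. The tissue was bulk cortex, and whether these genes changed in endothelial or in other cells was not tested.

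**Figure D4:**
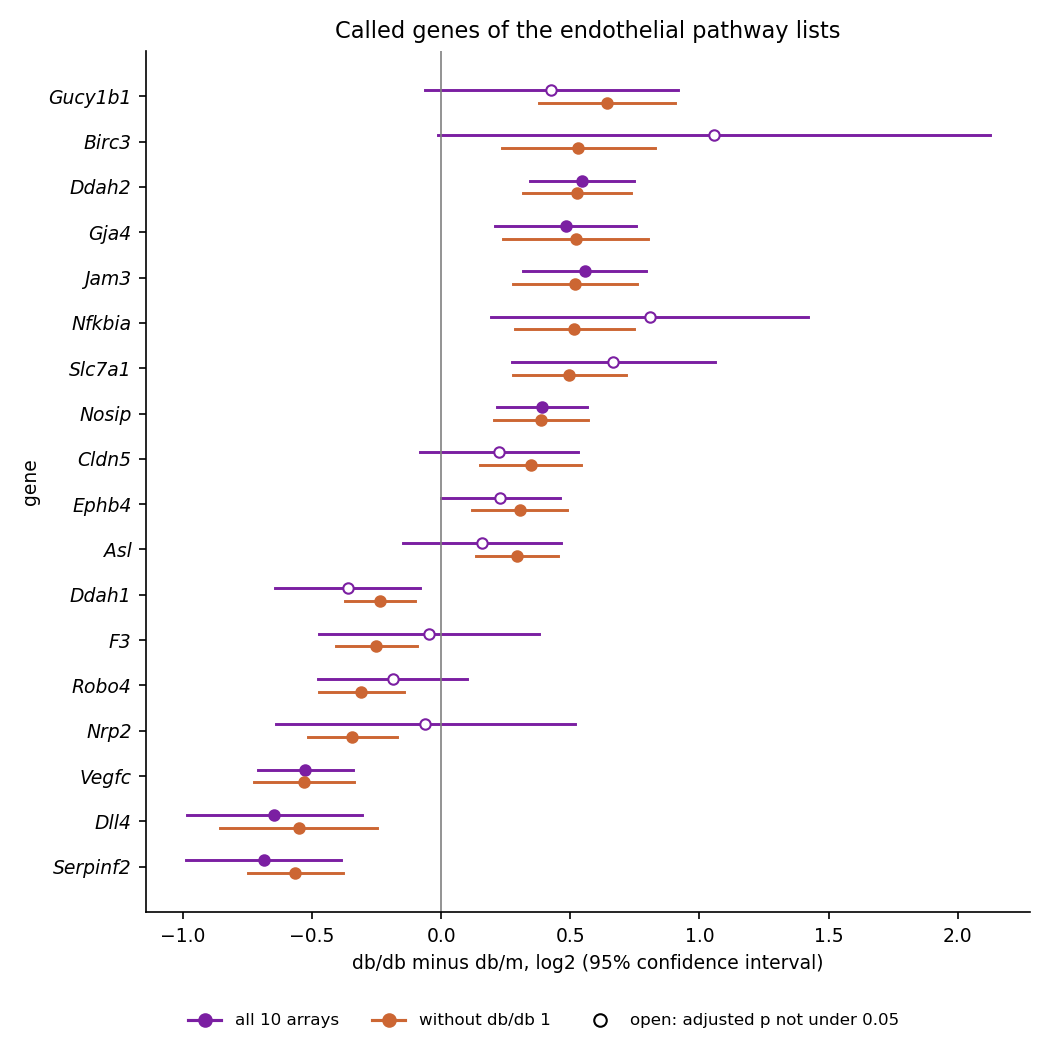
Change, db/db minus db/m in log2 units, with 95% confidence intervals from limma, of 18 pathway genes called in either fit, for all 10 arrays (purple) and without db/db 1 (orange); filled points have an adjusted p under 0.05. Arg1, at 13.47 in db/db 1, is left out for scale; Vegfc, Dll4 and Serpinf2 lie below 0 and Jam3, Ddah2, Nosip and Gja4 above 0 with filled points in both fits.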

How the data were processed

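Cortex RNA of 10 mice was measured on Affymetrix mouse genome arrays, 1 per mouse. The deposited values are on a log2 scale, and the submitters' processing notes name RMA as the tool. Its version and the regrouping of probes are not given in the sources used here. Its table holds 1 row per Entrez Gene ID, 16539 in all, of which 64 control rows were left out. Symbols came from the supplied platform annotation, which named 15780 of 16475 genes; 5 of 100 pathway genes and some marker genes had no named row. Values were used as deposited. RMA usually equalises array distributions, which makes changes relative to each array. The medians of the deposited values still ran from 8.46 to 8.66, so some difference in array level remained.

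Differences between groups were tested by limma (version 3.58.1, under R 4.3.3, with lmFit and eBayes, two-sided), adjusted with Benjamini-Hochberg over all 16475 genes, threshold 0.05. The code was also run on simulated arrays with normal noise, equal spread in both groups and no outlying array. That run does not bear on calls that turn on db/db 1. No 2 arrays were copies: the smallest of 45 largest pairwise differences was 3.07. Figures used Python 3.11.15 and matplotlib 3.10.9. Members and lists were chosen with earlier results of these data known. From each list up to 4 called genes with the largest change were named per fit, or the one with the lowest adjusted p. Icam1, Vcam1, Vegfa, Angpt1, Angpt2, Flt4, Ehd3, Plvap, Slc34a1 and the platelet, lymphatic and Wt1 values were added after seeing them. Alternatives were each mouse left out, the mouse number as a block (also without db/db 1), dim genes left out, repeated quantile normalisation, median centring, trend and robust eBayes, array weights and a threshold of 0.01; leaving out db/db 1 and 2 was added after seeing the data. Arrays give no counts, and their number limits the precision.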

Additional observations from a re-analysis of the deposited data

Results flagged for a closer look

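Over 20 sets of 5 mice (10 genes in 2 groups), 2 held a mouse far from the other 4, where chance flags about 1 in 20. Selp was 9.262 in db/db 1, where the gap to the next mouse was 0.915 of the group's range. Kdr was 9.138 in db/db 1, on the low side, where the gap was 0.751 of the range.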

How the results depend on the processing

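The count of members called, 2 with all arrays (Plat and Sele), ran from 1 to 3 when each mouse was left out. It was 1 (Plat) with the arrays centred on their medians, with trend and robust eBayes and with db/db 1 and 2 left out, 4 with array weights (Cdh5 and Pecam1 added) and 0 at a threshold of 0.01. With dim genes left out Sele was not tested and Pecam1 was called (adjusted p = 0.0406), so the count was again 2. Over all genes 1072 were called, from 490 to 2104 when each mouse was left out. The count was 1834 without db/db 1 and 2, 2641 with array weights and 279 at a threshold of 0.01. Median centring gave 363 higher and 751 lower against 488 and 584. Mouse numbers are only labels, and same-numbered mice did not deviate together (correlations from -0.09 to 0.01). With the mouse number as a replicate block 0 members and 393 genes were called, with Plat at adjusted p = 0.0523; with the block and without db/db 1 it was 1 member, Plat, and 985 genes. Uncalled members changed sign: Tek was -0.024 with centred arrays, and Emcn ran from -0.10 to 0.14 when each mouse was left out. Of 189 member values under 19 alternatives, 165 kept their direction and side of the threshold, most of them for uncalled members. Sele lost its call in 14 alternatives and kept it in 4, and Plat lost its call in 2 and kept it in 17. The cause of the changes was not tested.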
